A study of Mus musculus with 23 samples.

Results

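Lipoprotein lipase and 5 genes that control or complement it were followed in the circumvallate papilla of mice, the taste papilla at the back of the tongue. The genes are Angptl4, Lpl, Gpihbp1, Lmf1, Vldlr and Lipg. They were taken as the probes whose gene name in the scanner files is one of these symbols, and where a gene has 2 probes the one with the higher mean log2 signal over the 23 arrays leads. All 6 of the 34797 gene symbols on the array were found, and all 6 are among the 28209 genes well above background on at least 7 arrays. Lipg passed that filter narrowly, on 10 of 23 arrays; the other 5 genes were well above background on 23 of 23. Angptl4 was chosen by its measured log2 level in DIO-R against DIO and Lean samples on these same arrays, so its difference between groups is a description and not independent evidence.

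The mice were male C57Bl6j. The 8 DIO-R samples are taken to be from diet-induced obese mice kept at 60% of free energy intake, since the labels do not spell the name out and the design text mentions such restricted mice. The 8 DIO samples are from mice with free access to a high-fat, obesogenic diet with much saturated fat. The 7 Lean samples are from mice given free access to standard chow with 3% fat by weight. No group carries an allele or a drug, and age and the time on each diet are not given in the sources used here. The food of the DIO-R mice and the time since the last meal are not stated here. Whether each sample is 1 mouse or a pool is not stated either, so the p-values measure the spread between these samples.

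Triglycerides travel in the blood inside chylomicrons and very low density lipoproteins, and lipoprotein lipase on the capillary wall frees their fatty acids for the tissue behind it. The enzyme is made mainly by muscle and fat cells, folded with the help of the membrane protein encoded by Lmf1, and carried across the capillary endothelium by the protein encoded by Gpihbp1. Angptl4 encodes a secreted protein that inactivates the enzyme, and its gene is a classical target of the fatty acid sensing PPAR receptors, of glucocorticoids, of fasting and of hypoxia. Vldlr encodes a receptor that binds triglyceride-rich particles, and Lipg encodes the endothelial lipase, a related enzyme that acts mostly on phospholipids.

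What each value measures is the binding of labelled papilla RNA to probes of 60 bases. The first 30 bases of the probes are shown because the agreement of separate probes of 1 gene is part of the results; they are printed 5′ to 3′ as deposited, with no part marked. Positions are on mouse build mm9, per the scanner files. The Angptl4 probe lies on the minus strand at chr17:33911880-33911939. The Lpl probes lie on the plus strand at chr8:71430267-71430326 (lead) and chr8:71425050-71425109, and their starts are 5217 bases apart. The Gpihbp1 probe lies on the plus strand at chr15:75428484-75428543. The Lmf1 probes lie on the plus strand at chr17:25799606-25799665 (lead) and chr17:25722737-25722796, and the Vldlr probes on the plus strand at chr19:27324050-27324109 (lead) and chr19:27321104-27321163. Exon and UTR boundaries of that build were not used here.
Angptl4: atggtgctgttgtaggtgctgtggatgcac
Lpl, lead probe: gaacaccaacccacatgcaaaaccccacaa
Lpl, second probe: cgaggtttccacaaataaaacctactcctt
Gpihbp1: gctggaccaaatttggtaatatagccctcc
Lmf1, lead probe: ggagtggccactaccagaacccccatctag
Lmf1, second probe: tgatactcatgactgccctctgggccctct
Vldlr, lead probe: ctttttcaatggttgggacaatggcaatag
Vldlr, second probe: acagtgagacaaaagatatcaacacaacag

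Levels are given as log2 signal relative to the 75th percentile of the same array, so 0 is a spot as bright as that percentile. On single arrays 66.9% to 78.4% of probes were well above background, and correlations between arrays ran from 0.96 to 0.99. Markers of other tissues differed in mean between the groups, within a wide spread. The mean log2 score of 15 skeletal muscle markers averaged -0.38 ± 0.97 in DIO-R, 0.23 ± 0.59 in DIO and 0.18 ± 0.75 in Lean samples (SD, n = 8, 8 and 7), and that of 12 adipocyte markers averaged -0.49 ± 0.66, 0.23 ± 0.73 and 0.31 ± 0.69 in the same 3 groups. All 15 muscle markers were detected, and 1 of 13 adipocyte markers on the array (Acvr1c) failed the detection filter. In the limma fit 0 markers of either list had an adjusted p under 0.05 in any comparison. Both scores were lower in DIO-R than in DIO and Lean on array slides 1 and 2. On slide 3 DIO-R was higher: by 0.25 (muscle) and 0.18 (adipocyte) than DIO, and by 0.76 and 0.48 than Lean. DIO-R replicate 5 and Lean replicate 3 had the lowest muscle scores of their groups, and DIO replicates 1 and 6 had the lowest taste cell scores of theirs. Fewer cells of a type and less RNA per cell cannot be told apart in such samples.

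Angptl4, the inhibitor of the lipase, was low in DIO-R papillae, while DIO and Lean samples overlapped. Its log2 level in the 8 DIO-R samples was 1.90 at the lowest, 2.57 at the median and 3.21 at the highest. In the 8 DIO samples it was 4.03, 4.54 and 4.80, and in the 7 Lean samples 3.76, 4.42 and 5.07. No DIO-R sample reached the lowest DIO or Lean sample: the gap was 0.82 to DIO and 0.55 to Lean. The DIO and Lean samples overlapped, and the highest and the lowest of those 15 values were both from Lean mice.

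**Figure D1:**
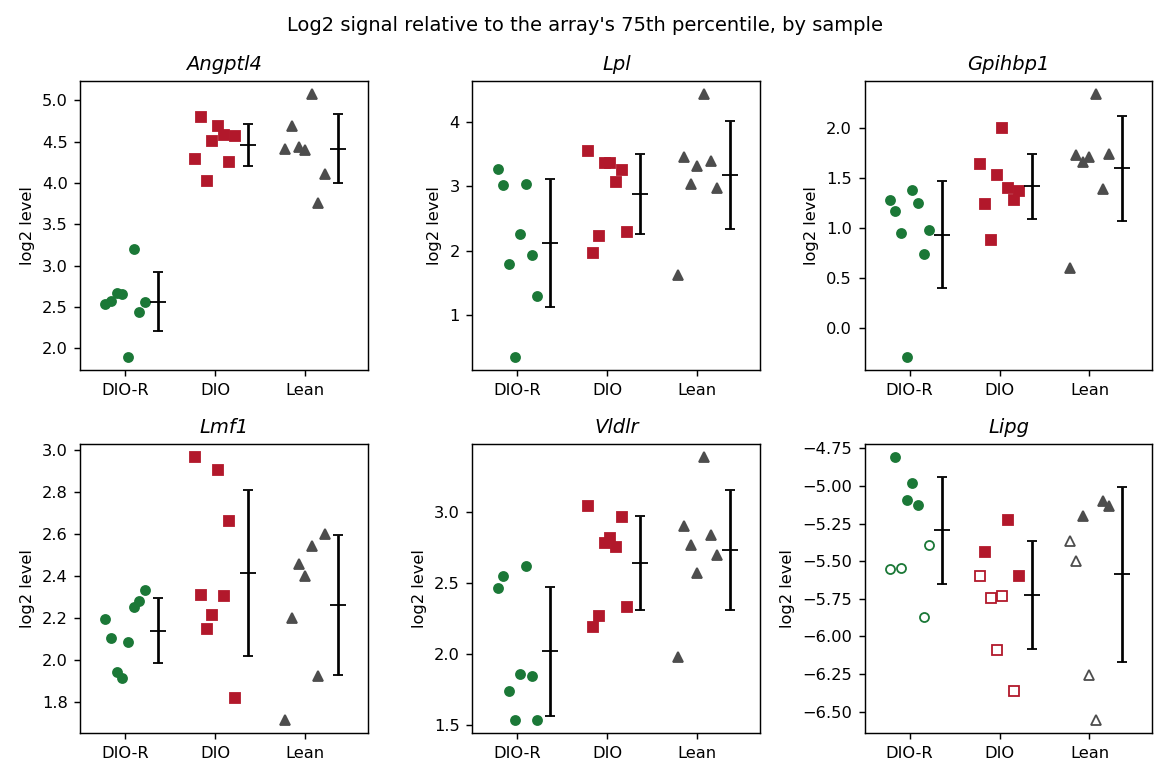
Log2 level of each gene (lead probe, relative to the array's 75th percentile) in every sample, with DIO-R as circles, DIO as squares and Lean as triangles; open symbols are spots not well above background, and the bars at the right of each group are mean ± SD. Angptl4 is the gene with a gap between DIO-R (highest 3.21) and the other groups (lowest 3.76), and Lipg has open symbols in all 3 groups.

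Angptl4 averaged 2.57 ± 0.36 in DIO-R and 4.46 ± 0.25 in DIO samples (SD, n = 8 each), a log2 difference of -1.90 ± 0.17 SE, or 3.72-fold lower with a 95% interval of 2.92 to 4.74. In the limma fit of all genes its adjusted p was 4.1e-06, the smallest of the 28209 genes. Only 4 genes of the 28209 had a more negative difference in this comparison. Against Lean (4.41 ± 0.42, SD, n = 7) the difference was -1.85 ± 0.17 SE, or 3.59-fold lower (2.80 to 4.62), with the second smallest adjusted p (6.49e-06). Both comparisons share the DIO-R samples, and these values are the ones by which the gene was chosen.

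No difference of Angptl4 between DIO and Lean was detectable. DIO minus Lean was 0.05 ± 0.17 SE, with a 95% interval of -0.31 to 0.41 (adjusted p = 0.961 in the limma fit). The order of the group means was therefore DIO, Lean, DIO-R, and the first 2 in that order did not differ beyond their spread.

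The DIO-R difference had the same sign on each of the 3 array slides, which hold samples of every group. DIO-R minus DIO was -2.22, -1.80 and -1.80 on slides 1, 2 and 3. DIO-R minus Lean was -2.27, -1.62 and -1.70 there. With each array left out in turn the DIO-R against DIO difference ran from -1.99 to -1.80, and the gene passed in 23 of 23 such fits.

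Over all genes, 0.0603% (17 of 28209) passed an adjusted p of 0.05 in DIO-R against DIO, 0.00354% (1 gene) in DIO against Lean and 0.128% (36 genes) in DIO-R against Lean. Of the 6 genes described here, 1 passed in the first comparison, 0 in the second and 1 in the third, and each time it was Angptl4. At an unadjusted p under 0.05, 3 of the 6 were lower in DIO-R than in DIO (Angptl4, Vldlr and Gpihbp1; background 3.79% lower), 0 differed between DIO and Lean in the same limma fits (background 8.96% in either direction), and 4 were lower in DIO-R than in Lean (those and Lpl; background 4.51% lower). Differences below 0 made up 48.4% of all genes in DIO-R minus DIO, 58.9% in DIO minus Lean and 55.5% in DIO-R minus Lean, against 5, 4 and 5 of the 6. Genes whose DIO-R samples all lay below the DIO samples made up 0.039% of all genes and included 1 of the 6. Against Lean this share was 0.117%, again with 1 of the 6. Angptl4 is in each of these DIO-R counts and was chosen by the same differences. Deviations of Lpl, Vldlr and Gpihbp1 from their group means correlated pairwise at r = 0.70 to 0.94. The counts are therefore not of independent genes.

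**Figure D2:**
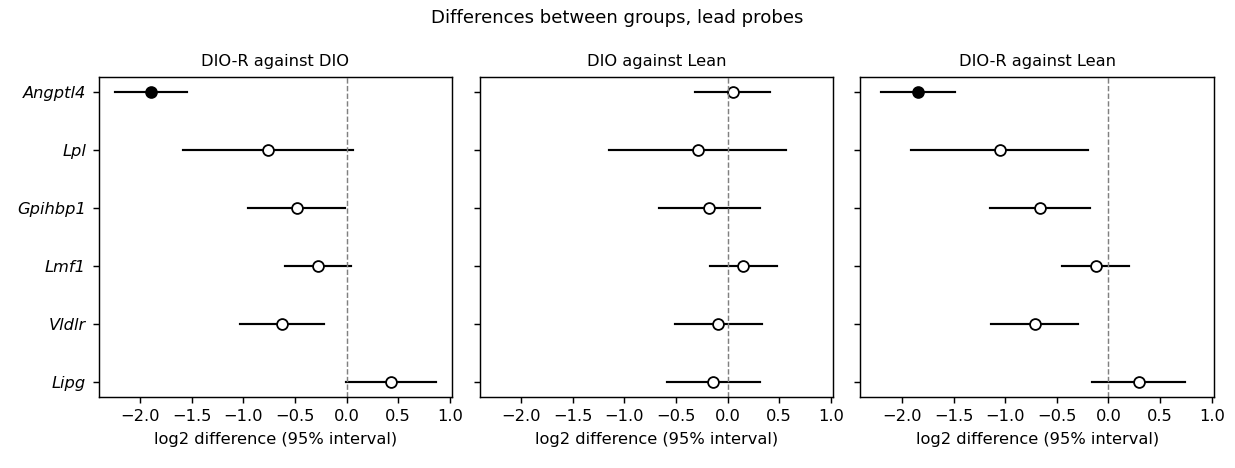
Log2 differences of the 6 genes in the 3 comparisons, first-named group minus the second, with 95% intervals from the limma fit of all genes; filled points have an adjusted p under 0.05. Angptl4 lies at -1.90 and -1.85 in the comparisons with DIO-R and at 0.05 in DIO against Lean, and each of the other genes has an open point in every comparison.

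Lpl, the gene of the enzyme itself, varied widely within every group. Its log2 level (lead probe) was 0.35, 2.10 and 3.26 at the lowest, median and highest DIO-R sample. In DIO samples these were 1.97, 3.16 and 3.54, and in Lean samples 1.62, 3.31 and 4.43. The groups overlapped: 3 of 8 DIO-R samples were above the DIO mean, while DIO-R replicate 5 was the lowest of all 23 samples.

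DIO-R minus DIO was -0.76 ± 0.40 SE for Lpl (95% interval -1.59 to 0.06, adjusted p = 0.533 in limma), and DIO-R minus Lean was -1.05 ± 0.41 SE (-1.91 to -0.20, adjusted p = 0.435). DIO minus Lean was -0.29 ± 0.41 SE. The sign was not the same on every slide: DIO-R minus DIO was -0.68, -1.47 and 0.13, and DIO-R minus Lean was -1.12, -1.99 and 0.41, on slides 1, 2 and 3. The skeletal muscle score differed in the same pattern, by -0.55, -1.26 and 0.25 between DIO-R and DIO on those slides. The second Lpl probe gave -0.78 ± 0.39 SE and -1.05 ± 0.41 SE for the 2 comparisons with DIO-R, and the deviations of the 2 probes from their group means correlated at r = 0.98 over the 23 samples.

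Gpihbp1, which carries the lipase to the capillary lumen, had log2 levels of -0.29, 1.08 and 1.38 (lowest, median, highest) in DIO-R samples, 0.88, 1.38 and 2.01 in DIO samples and 0.60, 1.71 and 2.34 in Lean samples. All 8 DIO-R samples were below the DIO mean, although the groups overlapped. DIO-R minus DIO was -0.49 ± 0.23 SE (adjusted p = 0.506 in limma) and DIO-R minus Lean -0.66 ± 0.24 SE (adjusted p = 0.378). Without DIO-R replicate 5 these differences were -0.31 and -0.49. On slides 1, 2 and 3 DIO-R minus DIO was -0.25, -0.87 and -0.17, and DIO-R minus Lean was -0.55, -1.18 and -0.04.

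Vldlr, the receptor for triglyceride-rich particles, came next to Angptl4 in the size of its difference relative to its error. Its log2 level was 1.54, 1.85 and 2.62 at the lowest, median and highest DIO-R sample, 2.19, 2.77 and 3.04 in DIO samples and 1.98, 2.77 and 3.39 in Lean samples. Every DIO-R sample was below the DIO mean, and the 3 highest DIO-R samples lay inside the DIO range. The difference was -0.62 ± 0.20 SE against DIO (1.54-fold, 1.16 to 2.04, unadjusted p = 0.0043, adjusted p = 0.431 in limma) and -0.71 ± 0.20 SE against Lean (unadjusted p = 0.00191, adjusted p = 0.211), and neither passed. On slides 1, 2 and 3 DIO-R minus DIO was -0.66, -0.86 and -0.27, and DIO-R minus Lean was -0.84, -1.03 and -0.06. The second probe gave -0.94 ± 0.33 SE and -0.89 ± 0.34 SE, and its deviations correlated with those of the lead probe at r = 0.96. On slide 3 its DIO-R minus Lean value was 0.30.

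Lmf1, the maturation factor that lipoprotein lipase needs in the endoplasmic reticulum, had the smallest SD of the 6 in DIO-R samples, at 2.14 ± 0.15, against 2.42 ± 0.40 in DIO and 2.26 ± 0.33 in Lean samples (SD, n = 8, 8 and 7). DIO-R minus DIO was -0.28 ± 0.15 SE, DIO minus Lean 0.15 ± 0.16 SE and DIO-R minus Lean -0.12 ± 0.16 SE, with adjusted p of 0.542, 0.845 and 0.829 in limma. Its 2 probes gave the same sign in each comparison, and their deviations correlated at r = 0.74.

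Lipg, the endothelial lipase, was close to the detection limit: its probe was well above background in 4 of 8 DIO-R, 3 of 8 DIO and 3 of 7 Lean samples. DIO-R minus DIO was 0.43 ± 0.21 SE (adjusted p = 0.517 in limma), and it was 0.04 when the background was modelled with normexp. No direction can be read for Lipg from these arrays.

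Within the groups, Lpl varied with muscle markers. Lpl deviations from the group means tracked the skeletal muscle score at r = 0.97 over 23 samples (Spearman rho 0.97). Without the 2 samples with the most extreme Lpl deviations r was 0.95. The r within DIO-R, DIO and Lean was 0.99, 0.96 and 0.94. Vldlr tracked the same score at r = 0.90 and Lpl itself at r = 0.94. Gpihbp1 tracked it at r = 0.76 (0.54 without the 2 samples with the most extreme Gpihbp1 deviations) and Lpl at r = 0.84. A score of the 7 detected markers (of 12 on the array) of the Von Ebner gland, the salivary gland under the papilla, also moved with these genes. The others, Lcn3, Lcn4, Lcn11, Lcn13 and Prol1, failed the detection filter. Whether the score is particular to this gland was not tested. Lmf1 tracked the gland score at r = 0.82 (rho 0.81), against 0.42 with muscle, and Lpl and Vldlr tracked it at 0.67 and 0.60. Gpihbp1 tracked the gland score at r = 0.74 (0.55 without the same 2 samples, and 0.96 within DIO-R). DIO-R replicate 5 was the lowest of its group in both Gpihbp1 (-0.29) and gland score (-2.35). The gland score averaged -0.52 in DIO-R, -0.02 in DIO and 0.62 in Lean samples, and with it as a covariate DIO-R minus Lean was -0.39 for Lpl, -0.25 for Gpihbp1, -0.43 for Vldlr and -1.84 for Angptl4, which still passed. These points share libraries and normalization, and the correlations are descriptions.

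For Angptl4 the correlations with muscle and fat markers were low over all samples and differed in sign between groups. Its deviations correlated with the muscle score at r = 0.13 (0.12, -0.25 and 0.37 within DIO-R, DIO and Lean) and with the adipocyte score at r = -0.00 (0.31, -0.51 and 0.08). With Lpl the r was 0.17. Angptl4 tracked more closely the fibroblast score (12 markers, r = 0.80, rho 0.76), the capillary endothelium score (15 markers, r = 0.79, rho 0.69) and the macrophage score (14 markers, r = 0.69, rho 0.57). Without the 2 samples with the most extreme Angptl4 deviations these r were 0.69, 0.69 and 0.50. The deviations ran against the lingual keratinocyte score (r = -0.62). The endothelium score averaged -0.10 in DIO-R, 0.14 in DIO and -0.04 in Lean samples. DIO-R replicate 5, with the lowest muscle score of all samples (-2.10), had an Angptl4 level of 2.66, above the DIO-R median.

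**Figure D3:**
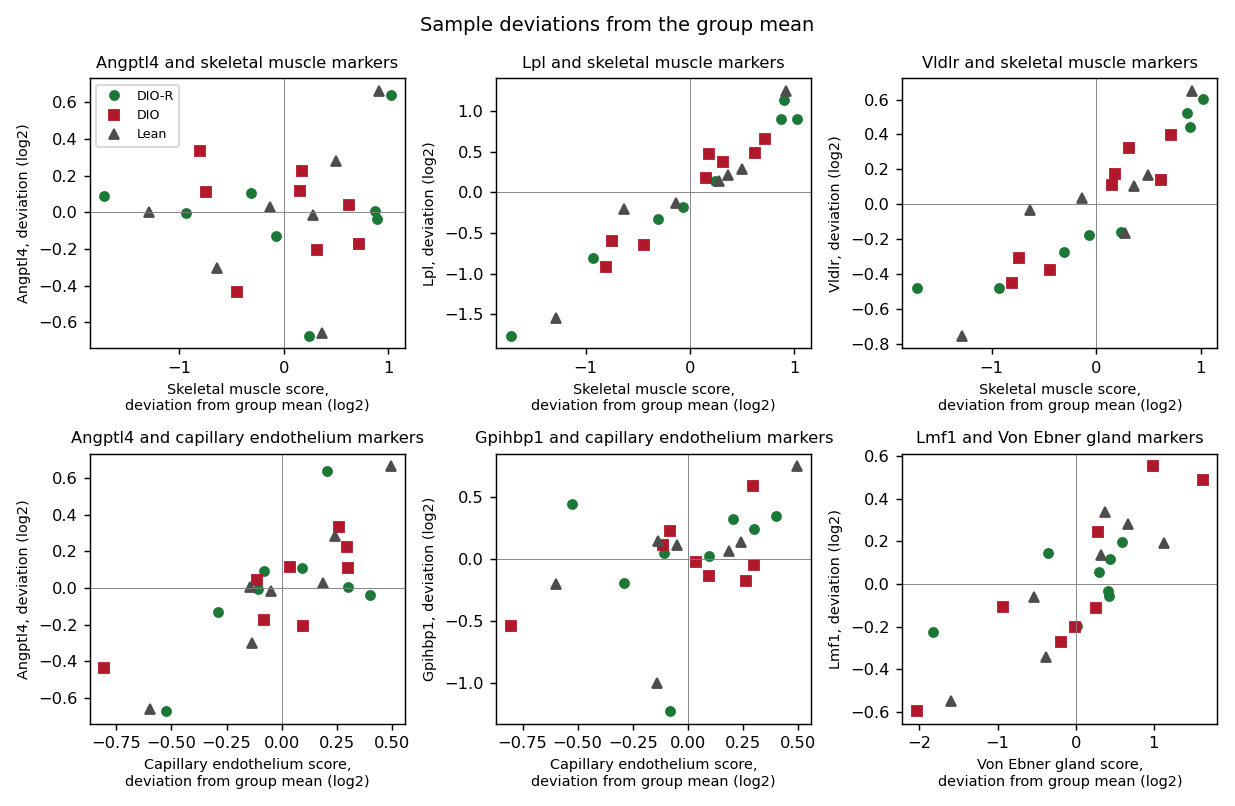
Deviation of each sample from its group mean in log2 level (vertical axis) against its deviation in a marker score (horizontal axis, mean log2 of the marker genes); circles are DIO-R, squares DIO and triangles Lean samples. Lpl and Vldlr rise with the skeletal muscle score (r = 0.97 and 0.90), Angptl4 has an r of 0.13 with that score and rises with the capillary endothelium score (0.79), and Lmf1 rises with the Von Ebner gland score (0.82).

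The limma model was also fitted with marker scores as covariates. With adipocyte and muscle scores as covariates, DIO-R minus DIO was -1.91 for Angptl4 (adjusted p = 2.76e-05 in limma), against -0.12 for Lpl, -0.21 for Gpihbp1, -0.32 ± 0.10 SE for Vldlr and -0.11 for Lmf1. None of these 4 passed, with or without covariates. With the muscle score alone, chosen after the data were seen, DIO-R minus Lean was -0.48 ± 0.11 SE for Lpl (adjusted p = 0.0916 in limma) and -0.45 ± 0.10 SE for Vldlr (adjusted p = 0.0624). Both differences were smaller than without the score, but the SE was smaller too, and both adjusted p were lower. With the endothelium score Angptl4 was -1.70 (adjusted p = 3.26e-08), and with fibroblast and endothelium scores, chosen after the data were seen, -1.72. With the erythrocyte score, which itself was lower in DIO-R (-0.30) and Lean (-0.32) than in DIO samples (0.58), Angptl4 was -1.74 and Lpl -0.17. Angptl4 thus passed in DIO-R against DIO in each of these fits.

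**Figure D4:**
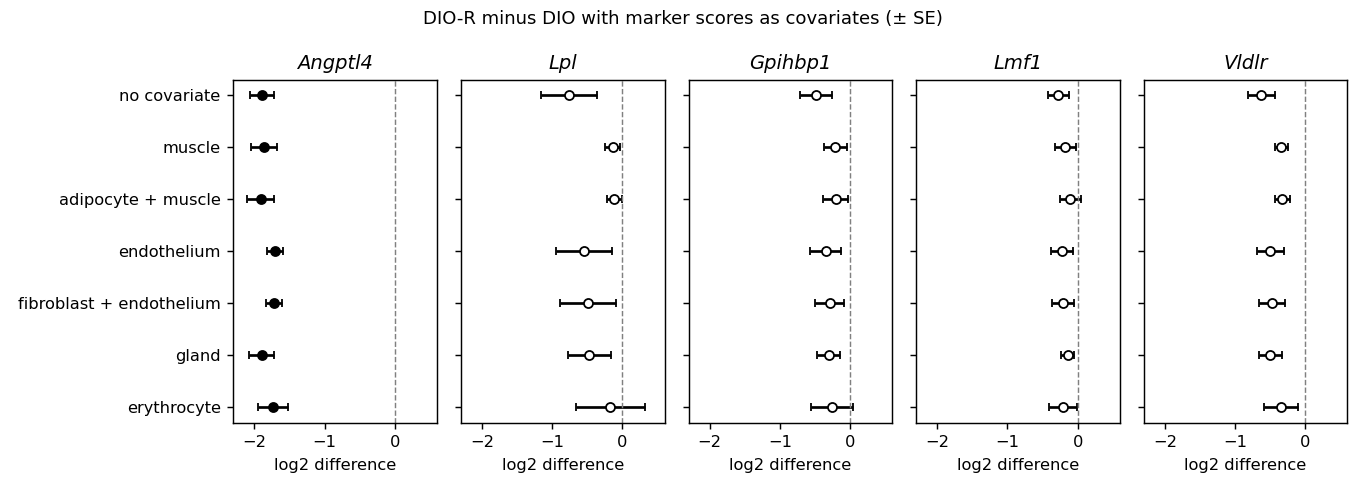
DIO-R minus DIO log2 difference (± SE) of 5 genes without a covariate and with marker scores as covariates in the fit; filled points have an adjusted p under 0.05. Angptl4 stays between -1.91 and -1.70, while Lpl moves from -0.76 without a covariate to -0.12 with adipocyte and muscle scores.

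Other proteins of the lipase system did not pass in any comparison. Of 19 detected partners and ligands, 8 were lower and 11 higher in DIO-R than in DIO, 0 passed in limma, and the median log2 difference was 0.11, against 0.01 over all genes. Among the apolipoproteins that activate or inhibit the lipase, Apoc2, its cofactor, was at -0.07 ± 0.18 SE, Apoc1 at 0.27 ± 0.18 SE, Apoc3 at 0.11 ± 0.23 SE and Apoa5 at -0.21 ± 0.23 SE. Apoe, a ligand of the Vldlr receptor, was at -0.18 ± 0.16 SE, Apob, the protein of the particles themselves, at -0.48 ± 0.30 SE, and the apolipoproteins Apoa2 and Apoa4 at 0.23 ± 0.11 SE and 0.25 ± 0.23 SE.

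The proprotein convertases, proteases of the family that cuts angiopoietin-like proteins and the lipase, lay between -0.26 and 0.17 in DIO-R minus DIO: Furin at -0.14, Pcsk5 at -0.26, Pcsk6 at 0.10 and Pcsk7 at 0.17. Sel1l and Syvn1, which belong to the degradation machinery of the endoplasmic reticulum, were at -0.01 and 0.16. The heparan sulphate proteoglycans Sdc1, Sdc4 and Hspg2, cell surface and matrix partners of the lipase, were at 0.35, 0.26 and 0.13. The smallest adjusted p of the 19 was 0.449.

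Of 5 detected relatives of Angptl4, 0 passed in DIO-R against DIO: Angptl1 was at -0.38 ± 0.27 SE, Angptl2 at -0.25 ± 0.24 SE, Angptl6 at -0.05 ± 0.09 SE, Angptl7 at -0.18 ± 0.35 SE and Angptl8, another protein of the family that acts on the lipase, at 0.30 ± 0.19 SE (adjusted p = 0.581 to 0.861 in limma).

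Among 15 other lipases, 0 passed in any comparison, with a median DIO-R minus DIO of 0.04. The largest differences were those of the pancreatic lipase relatives Pnliprp1 (-0.80 ± 0.44 SE) and Pnliprp2 (0.76 ± 0.41 SE) and of Lipk, an epidermal lipase (0.51 ± 0.32 SE). Among 20 genes of the LDL receptor family and of fatty acid uptake, 0 passed as well (median 0.02), and the largest differences were those of the fatty acid transporter Cd36 (-0.84 ± 0.36 SE) and of the fatty acid binding proteins Fabp4 (-0.82 ± 0.31 SE) and Fabp3 (-0.71 ± 0.42 SE).

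Among PPAR target genes, 3 besides Angptl4 fell in DIO-R against DIO. Of 33 detected genes of this list, which does not include Angptl4, 30 were lower in DIO-R than in DIO and 3 passed, with a median of -0.34 against 0.01 over all genes. The 3 are Pdk4, the kinase that holds back pyruvate oxidation, Acot1, a cytosolic acyl-CoA thioesterase, and Cpt1a, the gate for fatty acids into mitochondria. Against Lean, 32 of 33 were lower and 5 passed, those 3 with Acot2, the mitochondrial thioesterase (-0.997 ± 0.19 SE), and Slc25a20, the carnitine carrier (-0.56 ± 0.11 SE); the median was -0.32. In DIO against Lean 0 passed, 18 were higher and 15 lower (median 0.00, against -0.04 over all genes). This list was chosen with results of these arrays known, so its direction is no independent evidence.

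Pdk4 averaged 2.78 ± 1.19 in DIO-R and 5.55 ± 0.66 in DIO samples (SD, n = 8 each), a difference of -2.77 ± 0.44 SE (adjusted p = 0.00644 in limma). Its DIO-R values spread from 1.09 to 4.28, where those of Angptl4 spread from 1.90 to 3.21. Acot1 averaged 3.46 ± 0.26 in DIO-R and 4.70 ± 0.30 in DIO samples, a difference of -1.24 ± 0.13 SE (adjusted p = 5.36e-05 in limma), and Cpt1a 2.60 ± 0.12 and 3.09 ± 0.13, a difference of -0.49 ± 0.07 SE (adjusted p = 0.00368). In these 3 genes, as in Angptl4, all 8 DIO-R samples lay below the lowest DIO sample, as they did in 0.039% of all genes. Against Lean the same held for Angptl4, Acot1 and Cpt1a (0.117% of all genes). For Pdk4, 7 of the 8 DIO-R samples lay below the lowest Lean sample. Among the other members, the lipid droplet gene Cidec differed by -2.40 ± 1.02 SE without passing. Cidec is also among the markers of the adipocyte score, so that score and this list are not fully separate.

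With adipocyte and muscle scores as covariates, 27 of the 33 genes were lower in DIO-R than in DIO, with a median of -0.22, and Pdk4, Acot1 and Cpt1a lay at -2.05, -1.001 and -0.57 and passed. With the erythrocyte score they lay at -1.95, -1.01 and -0.53, and Acot1 was the one that passed (adjusted p = 0.86 for Pdk4, 0.0327 for Acot1 and 0.126 for Cpt1a in limma). Without DIO replicates 1 and 6 Pdk4 lay at -2.63 and did not pass (adjusted p = 0.0647), while Acot1 (-1.17) and Cpt1a (-0.55) did. Within slides 1, 2 and 3 the list's median in DIO-R minus DIO was -0.30, -0.51 and -0.20.

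The counts against Lean changed with the marker scores as well. With the gland score as a covariate, 22 of 33 genes were lower in DIO-R than in Lean (median -0.21) and 2 passed, and with adipocyte and muscle scores 25 were lower (median -0.14) and 5 passed. Within slides 1, 2 and 3 the list's median in DIO-R minus Lean was -0.27, -0.49 and -0.08, with 29, 32 and 19 of 33 genes lower. Pdk4 was at -2.53 ± 0.45 SE against Lean (adjusted p = 0.0155 in limma). It did not pass there with the gland score (-1.88, adjusted p = 0.175), with fibroblast and endothelium scores (-2.37, 0.0691) or in a fit of those 2 groups alone (-2.53, 0.0968). Acot2 and Slc25a20 passed against Lean in 14 and 12 of 23 fits that left out 1 array.

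**Figure D5:**
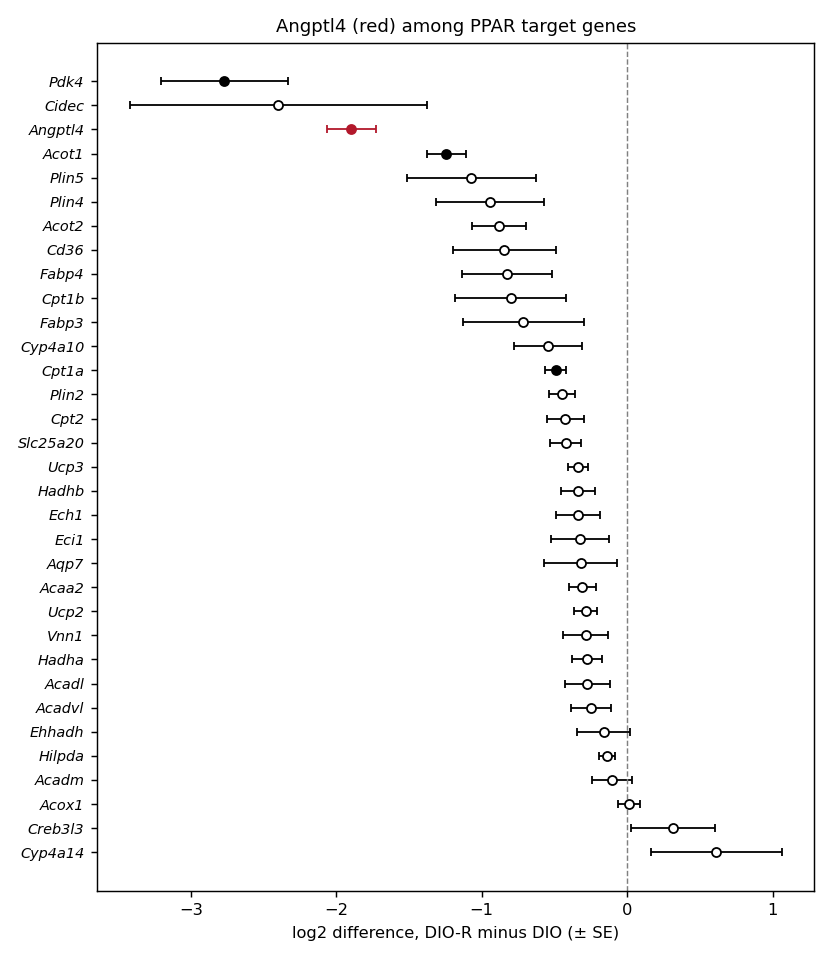
DIO-R minus DIO log2 difference (± SE) of Angptl4 (red) and of 32 of the 33 PPAR target genes (black), sorted; filled points have an adjusted p under 0.05. Of the 32 genes shown 29 lie below 0, and Pdk4 (-2.77), Acot1 (-1.24) and Cpt1a (-0.49) are filled.

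Targets of other pathways that act on Angptl4 were counted in the same way. Of 18 detected hypoxia targets, 11 were higher and 7 lower in DIO-R than in DIO and 0 passed (median 0.07). The largest were Ankrd37 (0.65 ± 0.18 SE), the prolyl hydroxylase Egln3 (0.42 ± 0.13 SE) and the glucose transporter Slc2a1 (0.40 ± 0.11 SE). Of 15 glucocorticoid targets, 8 were higher, 7 lower and 0 passed (median 0.05). Zbtb16 was at -0.64 ± 0.28 SE, the phosphatase Dusp1 at 0.44 ± 0.14 SE and Lcn2 at 0.35 ± 0.24 SE. In DIO-R minus Lean 12 of these 15 were lower (median -0.09), and in DIO minus Lean 14 were lower (median -0.26). Of the hypoxia targets 7 and 13 of 18 were lower in those comparisons (medians 0.02 and -0.10). Again 0 of either list passed, and the medians over all genes were -0.02 and -0.04.

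The messages of 16 regulators known to act on Angptl4 (transcription factors, cofactors and the receptor Tgfbr2) also had 0 that passed (median -0.06). The PPAR receptor genes Ppara, Ppard and Pparg were at -0.12 ± 0.17 SE, 0.13 ± 0.11 SE and 0.26 ± 0.06 SE (adjusted p = 0.801, 0.677 and 0.197 in limma). The mitochondrial coactivator Ppargc1a was at -0.86 ± 0.35 SE and the hypoxia factor Hif1a at 0.23 ± 0.08 SE.

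Among the 5 genes whose levels were most like those of Angptl4 over all 23 samples, of 28195 compared, were Txnip (r = 0.90), Acot1 (0.87), Acot5 (0.85) and Klf11 (0.84). These r contain the gap between DIO-R and the other groups. Over deviations from the group means Txnip, a glucose-responsive inhibitor of thioredoxin, had an r of 0.77, whereas Acot1, the peroxisomal thioesterase Acot5 and the transcription factor Klf11 had an r of 0.00, 0.08 and 0.19. DIO-R minus DIO was -0.52 ± 0.10 SE for Txnip (adjusted p = 0.0504 in limma), which did not pass, and -1.28 ± 0.17 SE for Acot5 and -0.61 ± 0.09 SE for Klf11, both of which did. Neither passed when the erythrocyte score was added to the fit (Acot5 -1.06, adjusted p = 0.229; Klf11 -0.52, adjusted p = 0.63). The mean of all Acot5 probes differed by -0.59 ± 0.17 SE (adjusted p = 0.379 in limma), less than its brightest probe.

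Among the 5 closest genes by deviations from the group means were others: the interleukin receptor chain Il3ra (r = 0.86), Adgre5, listed in the files as Cd97 (0.86), Tm6sf1 (0.85) and a transcript listed as ENSMUST00000137136 (0.85). None of these 4 passed in any of the 3 comparisons in limma, with DIO-R minus DIO between -0.51 and -0.17. Of the other lipase genes, Vldlr ranked 73 of 28195 by levels (r = 0.67), Gpihbp1 430 (0.55), Lpl 813 (0.50) and Lmf1 3275 (0.34), and Lipg ran the other way (-0.45).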

How the data were processed

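Total RNA (25 ng per sample) from 23 papilla samples was labelled with Cy3 and hybridised to one-colour Agilent arrays, per the labels' protocols. The deposited scanner text files hold spot intensity values. The software was Agilent Feature Extraction 10.10.1.1, as the headers of those files record, and the authors' deposited value table holds log2 values whose column medians of 7.63 to 7.64 are alike, with limma named in the submitters' processing notes. Its scale follows the spot intensity (Spearman correlation at least 0.99999), and which centring step was used is not given in the sources used here.

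From the processed intensity, log2 values minus each array's 75th percentile over spots that are not controls were computed. No spot of the 9 probes used was flagged as an outlier, and 0 spots were saturated. Each gene was represented by its brightest probe, kept if well above background on at least 7 of 23 arrays. All 3 comparisons came from 1 limma 3.58.1 fit (R 4.3.3) of the 28209 genes with a mean per group, Benjamini-Hochberg adjusted over all of them, threshold 0.05. Symbols were matched to RefSeq (GRCm38.p6) for 17300 genes, of which 1796 were updated. Lists and marker scores (mean of gene-centred log2 values) were not tested as sets. The number of arrays limits the precision.

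The genes and lists were chosen with earlier results of these data known. Genes were named by a rule: the 6 genes, list members that passed or were among the 3 largest of a list, the detected lipase partners, and the 5 closest to Angptl4 by each measure. A few genes that this rule names are not reported here, although the counts and medians of their lists include them. The method was tested on simulated data with independent noise for each gene. In DIO-R against DIO it recovered 78 of 100 genes changed by 1 log2 unit and 93 of 100 changed by 2. Slide effects, tissue composition and correlation between genes were not simulated. Alternatives covered background, normalization, the authors' table, filters, probes, slide, weights, covariates and each array left out.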

Additional observations from a re-analysis of the deposited data

Results flagged for a closer look

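Among 27 groups of values tested (9 probes in 3 groups), 1 sample stood apart from the rest of its group by its gap to the nearest other value. Gpihbp1 in DIO-R replicate 5 lay at -0.29, and the next lowest DIO-R sample at 0.74, a gap that is 0.62 of the group's range. Chance marks about 1 in 20 groups in this way. The same sample had the lowest skeletal muscle score (-2.10), Von Ebner gland score (-2.35) and Lpl level (0.35) of all 23 samples. Its part in the Gpihbp1 difference is given by the values without it, -0.31 against DIO and -0.49 against Lean.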

How the results depend on the processing

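Angptl4 kept its sign and its call in DIO-R against DIO and against Lean in all 18 refits of all genes and in all 23 fits that left out 1 array (DIO-R against DIO -1.94 to -1.70 and -1.99 to -1.80, highest adjusted p 0.00259 in limma; DIO-R against Lean without 1 array -1.95 to -1.73). Within slide 1 its DIO-R minus Lean value was -2.27. The count of the 6 genes that passed stayed at 1, 0 and 1. The DIO minus Lean value of Angptl4 is near 0 and changed sign in several settings. It was -0.00170 with the replicate number as a block, -0.112 with the erythrocyte score and -0.0919 with the endothelium score. With fibroblast and endothelium scores it was -0.13, without Lean replicate 9 it was -0.0583, and within slide 1 it was -0.0511. Over arrays left out it ran from -0.0583 to 0.162. Other uncalled signs that turned in DIO minus Lean were those of Lmf1 (-0.0534 with the replicate block, -0.0203 without DIO 1 and DIO 6), Lipg (0.0233 with the replicate block), Vldlr (0.0174 without Lean replicate 7, lowest -0.217) and, with the gland score, Lpl (0.0849), Gpihbp1 (0.0556) and Vldlr (0.0711). Within single slides Lmf1 (-0.21 on slide 2), Lipg (0.0786 on slide 1 and 0.00101 on slide 2), and Lpl, Gpihbp1 and Vldlr (0.28, 0.14 and 0.20 on slide 3) turned as well. Lmf1 in DIO-R minus Lean turned to 0.0684 with adipocyte and muscle scores, to 0.18 with the gland score and to 0.16 within slide 3. The cause of these turns was not tested.

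Counts over all genes moved more. In DIO-R against DIO (17 genes) limma called 27 after quantile normalization, 26 in the authors' table, 38 with array weights, 3 with the erythrocyte score, 10 without DIO 1 and DIO 6, and 11 to 24 without 1 array (11 without DIO-R replicate 5 or 10 or DIO replicate 1, 6 or 8). In DIO against Lean (1 gene) it called 2 with normexp, 9 in the authors' table, 3 with the slide block, 61 with array weights, 3 with trend and robust settings, 2 with erythrocyte, 33 with endothelium, 9 with adipocyte and muscle, 9 with fibroblast and endothelium, 2 with gland and 30 with muscle scores, 27 without DIO 1 and DIO 6, and 1 to 37 without 1 array (37 without DIO replicate 6, 22 without Lean replicate 7, 8 without DIO-R replicate 6, 3 without DIO replicate 3, 2 without DIO-R replicate 2 or 3). In DIO-R against Lean (36 genes) it called 135 with array weights, 106 with endothelium and 12 with gland scores, 58 without DIO 1 and DIO 6, and 26 to 65 without 1 array (65 without Lean replicate 3). With the replicate number as a block limma called 4, 0 (1349 at an unadjusted p under 0.05) and 9 genes. The 18 same-numbered pairs had correlations of deviations from -0.37 to 0.33, with 4 over 0.1. Pairs with different numbers were not compared, so whether equal replicate numbers pair the samples cannot be told. In that fit Pdk4 (-2.62), Cpt1a (-0.52) and Klf11 (-0.64) in DIO-R against DIO and Pdk4 (-2.53) in DIO-R against Lean did not pass, and 1 of the 33 PPAR targets passed in each of these comparisons.

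Lipg is limited by signal over background, and 2 refits (the authors' table and the filter on all arrays) gave no value for it. Fibroblast with endothelium, gland and muscle scores were chosen as covariates after the data were seen.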
